A study of Mus musculus with 31 samples.

Results

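The clustered replication-dependent histone genes are the copies of the core histone genes that lie side by side in the mouse histone gene clusters. They were taken from the deposited count table as every gene whose symbol begins with Hist1h, Hist2h, Hist3h or Hist4h, or with H1-, H2ac, H2bc, H3c or H4c and a number, because the table holds older and newer symbols side by side. This gave 59 of 20544 genes, 9 under an older and 50 under a newer symbol, with no row of the H1- form. They comprise 18 H2A, 17 H2B, 12 H3 and 12 H4 genes, of which 49 lie on chromosome 13 and 10 on chromosome 3. At least 1 count was found for 47 of them, and 12 were at 0 in all 31 embryos.

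The libraries were made from individual 2-cell embryos of WT genotype, collected 32 h after insemination and sequenced by Smart-seq3, in which reverse transcription is primed from a poly(A) tail. Sperm from C57BL/6J males aged 12 to 14 weeks fertilized oocytes of superovulated CD1 females aged 8 to 10 weeks in vitro. In the control group (16 embryos) the sperm stayed in complete medium, and in the SER group (15 embryos) they were kept without glucose and pyruvate until motility was lost and then given both back, while oocytes and embryo culture were alike. The cauda epididymides of a male were divided between the groups. The labels do not say which embryos share parents, a dish or a batch, so p-values measure the spread between these embryos. Setting the SER group against the control group asks whether the sperm treatment altered transcript levels after activation of the embryonic genome.

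Core histones wrap DNA into nucleosomes, H3 and H4 as the inner tetramer and H2A and H2B as dimers on either side. Replication-dependent copies have no introns, are transcribed in S phase to package newly made DNA, and end in a stem-loop instead of a poly(A) tail, where the stem-loop binding protein SLBP and the U7 snRNP direct cleavage of the pre-mRNA. Genes outside the clusters, such as those for H3.3 and H2A.Z, make polyadenylated mRNA throughout the cell cycle and supply the variants that the oocyte stores.

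The stem-loop is shown because it separates these genes from nearly all others and sets where their mRNA normally ends. It was searched for on the transcript strand, after the stop codon of GENCODE vM21 transcripts (GRCm38), as GGNNCT and AGNNCC around the loop TNTN, with all 6 pairs of the stem complementary. A match was found in 39 of the 59 genes. Of the 20 without a match, 15 have under 16 annotated bases after the stop codon, too few for the 16-base hairpin. The comparison took protein-coding transcripts of other genes with at least 100 annotated bases after the stop codon. Within those 100 bases 3 of 47262 transcripts had a match (0.0063%). The lines give the 16-base hairpin, with 5 bases on either side, of 8 of the genes with the highest counts, and of H2bc7 and H4c6, which were at 0 in every embryo. Capitals mark the stem, the 4 lower-case bases between them are the loop, and the outer lower-case bases flank the hairpin.
H4c9: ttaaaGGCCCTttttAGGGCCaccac
H4c4: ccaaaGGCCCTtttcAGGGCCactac
H4c3: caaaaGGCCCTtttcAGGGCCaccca
H4c14: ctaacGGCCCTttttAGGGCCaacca
H4c1: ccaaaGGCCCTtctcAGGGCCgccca
H2bc11: ccaaaGGCTCTtttcAGAGCCacgca
H3c7: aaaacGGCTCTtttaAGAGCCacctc
H3c6: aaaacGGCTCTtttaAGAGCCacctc
H2bc7: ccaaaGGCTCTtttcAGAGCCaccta
H4c6: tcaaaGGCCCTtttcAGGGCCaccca
Of the 39, 21 carried the hairpin of H2bc11 and H2bc7, 6 that of H4c4 and H4c6, and 5 that of H3c7. The loop of H4c9 and H4c14 was found in 2 genes with that stem. H2bc11 and H4c4 have the same hairpins as the genes at 0, so the hairpin's letters did not set apart the genes with counts from those without.

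Counts on genes ranged from 532945 to 2085222 in control- and from 642321 to 3088396 in SER-generated embryos, and no libraries were identical. A count of 0 allows a level of up to 3 counts, which came to between 0.971 and 5.63 counts per 1000000 counts of the library (CPM). The markers of the 2-cell embryo in the table, 13 of a list of 15, all had counts, led by Zfp352 at a mean of 190 CPM. Oocyte markers were also present, with Bmp15 at 753 CPM, and the hemoglobin genes of blood were at 0. The other 5 of 9 blood markers had counts, led by the macrophage gene Cd68, and summed to 0 to 24.6 CPM in control- and 0 to 152 CPM in SER-generated embryos, highest in SER-generated embryo 13. All 13 cumulus cell markers had counts, with sums of 0 to 155 CPM in the control group, highest in embryo 5, and 1.01 to 19.6 CPM in the SER group. All 11 sperm markers had counts, led by Odf2 at a mean of 181 CPM. They summed to 101 to 282 CPM in the control group and 87.1 to 373 CPM in the SER group, highest in SER-generated embryo 12. Intervals and floors cover counting error only.

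The clustered histone genes were scarce in these libraries. Together they held 2023 of 41350577 counts, and their median level was 0.178 CPM against 4.87 CPM over all genes. A mean of at least 1 CPM was reached by 14 of the 59 (23.7%), against 64.6% of all genes. No member had a count in every embryo. H4c9 and H2bc11 came closest with 22 of 31 embryos, 7 members had a count in at least 16 embryos, and the median member was seen in 3. The 3 highest members held 43.2% of the counts and the 9 highest 73.1%. At the other end, 12 members had 1 to 3 counts in all, and 7 of these had 1.

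The summed level per embryo was 20.5 CPM at the lowest, 39.9 at the median and 251 at the highest in control-generated embryos, and 3.13, 36.0 and 133 CPM in SER-generated embryos. The groups overlapped over most of their range. Between 4 and 24 members had a count in a control-generated embryo (median 9.5) and between 4 and 23 in a SER-generated embryo (median 10). Each library holds the RNA of a whole embryo, so fewer cells with these transcripts and less RNA per cell cannot be told apart.

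**Figure D1:**
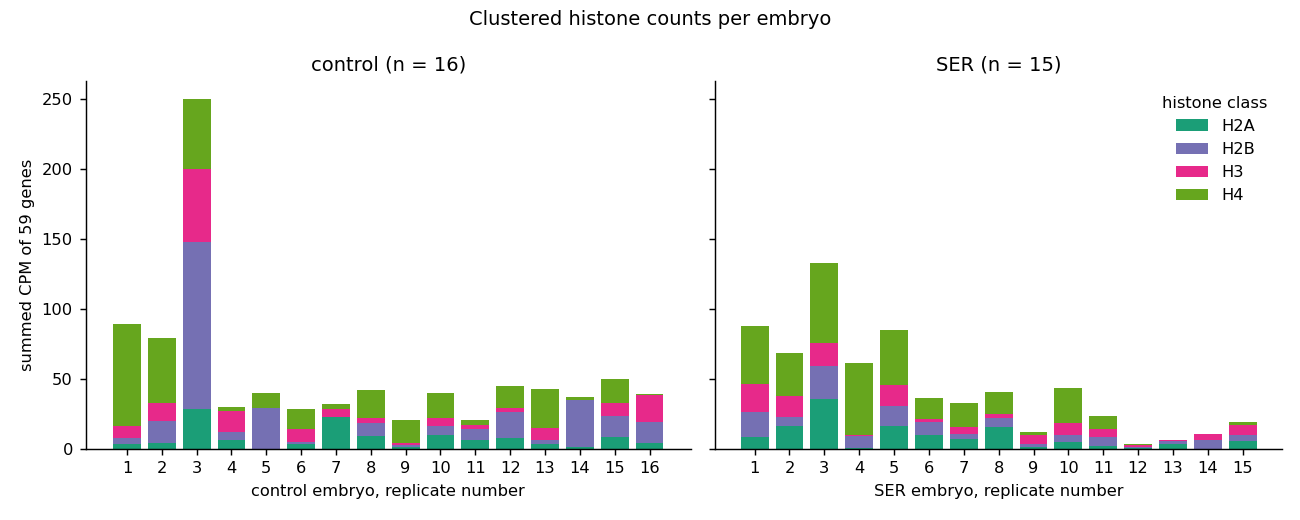
Summed CPM (y axis) of the 59 clustered histone genes in each embryo, with 16 control-generated embryos on the left and 15 SER-generated embryos on the right by replicate number (x axis), stacked by histone class. Control-generated embryo 3 stands highest at 251 CPM, with 120 CPM from H2B genes, and SER-generated embryos 12, 13 and 14 lie lowest, between 3.13 and 10.7 CPM.

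Control-generated embryo 3 stood apart, with 257 histone counts on 24 members. Its summed levels of the oocyte markers (6315 CPM), 2-cell markers (1666 CPM) and replication-independent histone variants (5082 CPM) were also the highest of the control group. SER-generated embryos 12 to 15 held 3.13, 6.52, 10.7 and 19.1 CPM of clustered histones at depths of 2158512 to 2567720 counts, above every control library. Their variant levels, 2248 to 3075 CPM, lay within the range of the other embryos. SER-generated embryo 15 had the lowest 2-cell marker sum of its group (134 CPM) and the highest oocyte marker sum (7116 CPM). What part these differences between embryos, or the blood, cumulus cell and sperm markers, play in the comparison of the groups was not tested beyond leaving out each embryo.

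By class, H4 genes held 43.8% of the counts, H2B genes 23.6%, H3 genes 17.8% and H2A genes 14.7%. H4c9 alone (Hist1h4i, chr13:22040636-22041362, minus strand), shown above with its hairpin, carried 470 of the 886 H4 counts. Its level was 10.7 ± 14.1 CPM (SD, n = 31), and 41.1% of all genes had a higher mean. It was found in 11 of 16 control-generated embryos, with a lowest value of 0, a median of 2.87 and a highest of 56.5 CPM, and in 11 of 15 SER-generated embryos, with 0, 7.20 and 44.3 CPM. The groups overlapped from 0 upwards, and the log2 fold change of SER over control was 0.21 (SE 0.78).

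The other H4 genes were lower. H4c4 (chr13:23581598-23582735) ranged from 0 to 25.4 CPM in control- (median 1.56) and from 0 to 27.6 CPM in SER-generated embryos (median 0), H4c3 (chr13:23697635-23698454) from 0 to 15.6 (median 1.87) and from 0 to 4.06 CPM (median 1.56). H4c14 on chromosome 3 and H4c1 reached at most 5.03 and 4.88 CPM in any embryo. Hist1h4m and H4c6 were at 0 throughout.

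Among H2B genes, H2bc11 (Hist1h2bj, chr13:22043214-22043676) led with 181 counts. It was seen in 12 control-generated embryos, with a lowest value of 0, a median of 2.83 and a highest of 25.7 CPM, and in 10 SER-generated embryos, with 0, 3.04 and 13.8 CPM. Medians were close and the ranges overlapped. H2bc4 (chr13:23684199-23692908) had 67 counts in 10 control- and 14 in 6 SER-generated embryos, with medians of 1.37 and 0 CPM and highest values of 29.3 and 5.73 CPM. H2bc18 (chr3:96269752-96270132) had 77 and 22 counts in 6 and 3 embryos, and 55 of its 99 counts came from control-generated embryo 3, so both group medians were 0. H2bc18 lies wholly within exons of Gm20628 on the opposite strand, and without a stated strand setting reads of the 2 genes cannot be told apart. Exons of Gm42743 also overlap 226 of its bases on the same strand, where strand cannot separate the reads.

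H3 genes were led by H3c13 (chr3:96268654-96269141), which ranged from 0 to 18.4 CPM in control- (median 1.14) and from 0 to 6.08 CPM in SER-generated embryos (median 1.56). Gm20628 also covers all of its exon. H3c7 (chr13:23544052-23545312) had a count in 11 control- and 6 SER-generated embryos, with highest values of 14.6 and 12.4 CPM, and H3c6 reached at most 6.83 CPM. H3c2, H3c3 and H3c15 were at 0 in every embryo.

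H2A genes had the fewest counts over all embryos, though not within the SER group, where their summed mean of 8.46 CPM was above those of H2B and H3. By median they were lowest there too, at 5.84 CPM against 6.23 for H2B and 6.07 for H3. H2ac1 (Hist1h2aa, chr13:23934462-23934851) encodes the H2A form first known from the testis, and its neighbour H2bc1 the matching H2B form. H2ac1 was seen in 7 control- and 6 SER-generated embryos, at up to 16.9 and 19.6 CPM, and both medians were 0. H2bc1 was seen in 5 and 7 embryos at up to 9.75 and 2.17 CPM. H2ac12 (at most 11.5 CPM) and Hist1h2an (at most 7.20 CPM) followed, and only 8.78% and 10.7% of their 30-base windows are found in no other gene, so their counts may be shared with close copies.

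Every one of the 30 members with at least 10 counts had an SD above its mean, at 1.32 to 4.59 times the mean, and was at 0 in at least 1 embryo of each group. In 7 of them a single embryo held over 50% of the counts. Neighbours in the order of levels lay within the spread of each other. The plot of the 15 highest members shows this as points at 0 below a few embryos with far higher values.

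**Figure D2:**
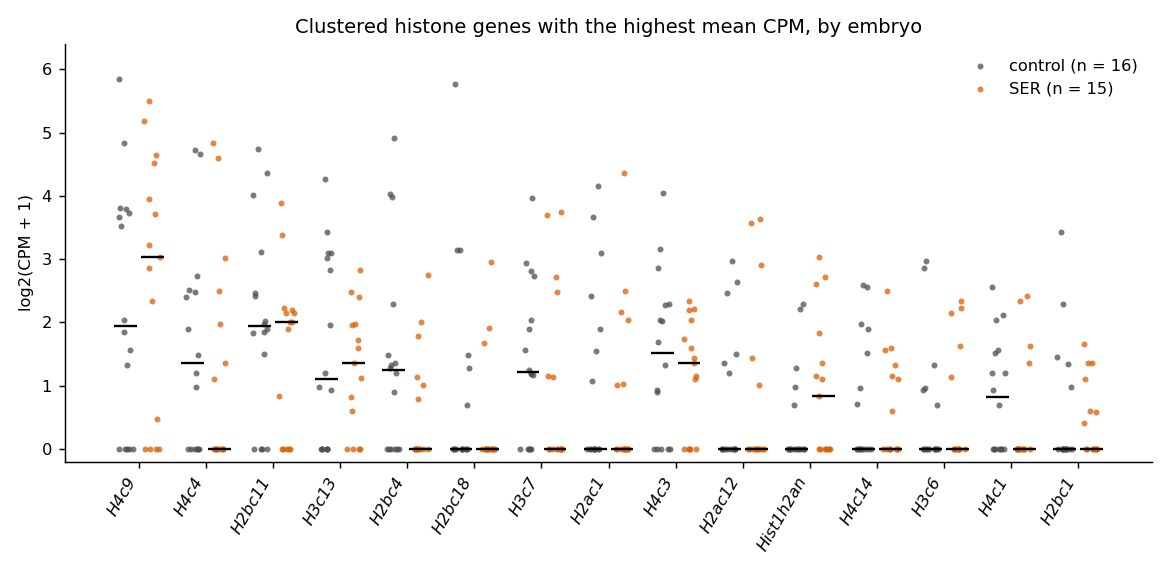
Level of the 15 clustered histone genes with the highest mean CPM in each embryo, as log2(CPM + 1) on the y axis and by gene on the x axis. Grey points are the 16 control-generated embryos, orange points the 15 SER-generated embryos and black bars the group medians. Points of both groups overlap for each gene, and H4c9 has the highest medians, 2.87 CPM in the control and 7.20 CPM in the SER group.

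Levels were unevenly spread along the chromosomes. With genes more than 100000 bases apart taken as separate, the members fell into 6 blocks. The block at chr13:22035164-22043676 holds 5 members (H2ac12, H2bc12, H4c9, H2ac11 and H2bc11) and 716 counts, 35.4% of the total. The block of 24 members at chr13:23531050-23762386 had nearly the same sum, 718 counts or 35.5%. The 17 members at chr13:21715763-21837530 together had 131 counts (6.48%), and the 10 on chromosome 3 had 303 (15.0%). H2ac1 and H2bc1 formed a block of their own with 129 counts, and Hist1h2al, annotated as a processed pseudogene away from the cluster, had 26.

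An H2A and an H2B gene often start back to back and share the region between their starts. There were 12 such pairs with at most 1000 bases between the gene models, and in several the members were unequal in counts. H2bc11 had 181 counts and H2ac11 had 4, with 1 embryo in which both were seen. H2bc4 had 81 and H2ac6 23 counts, seen together in 8 embryos, and H2ac12 had 49 against 12 for H2bc12, seen together in 5. H2ac1 had 98 and H2bc1 31 counts, seen together in 7 embryos. In H2ac11 and H2bc11 20.2% and 32.3% of 30-base windows are found in no other gene, so part of such a difference can lie in how reads of copies were treated, which was not tested.

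The annotated 3′ end varied among members, and counts varied with it. In GENCODE vM21 the gene model of 16 members ran at least 100 bases past the stem-loop. These held 1067 counts, 52.7% of the total. They include H4c9, which runs 330 bases past its hairpin, H4c4 with 770, H4c3 with 454 and H3c7 with 365. The annotation used for counting is not given, and RefSeq spans of several of these genes are shorter. The span is 403 bases for H4c9 against 727 exon bases in GENCODE, 402 against 1138 for H4c4 and 375 against 820 for H4c3. For H3c6 it is 911 against 836. In 7 of the 16, AATAAA or ATTAAA stood in the last 50 bases. These were H4c9, H4c14 and H4c1, with 470, 42 and 40 counts, and H2ac8, H2bc6, H3c14 and H4c11, with 7, 3, 1 and 3. H4c4, H4c3 and H3c7 had neither in those bases. How often other genes have them was not counted. In 23 members the model ended less than 100 bases past the stem-loop, and these held 327 counts (16.2%), of which H2bc11 gave 181. H4c9 alone gave 470 of the 1067 counts of the longer ends. Of the 23 members 8 were at 0, against 1 of the 16 with the longer end. Members at 0 were also few, 1 of 15, where under 16 bases are annotated after the stop codon. Among the 5 with a longer end and no stem-loop 2 were at 0.

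Per length the difference depended on the gene model. On GENCODE exons, which include the longer ends, the median was 0.314 CPM per kb of exon in the 16 genes with longer ends and 0.111 CPM per kb in the 23 with shorter ends, and the ranges overlapped, from 0 to 14.8 and from 0 to 9.72 CPM per kb. On RefSeq gene spans, used for 15 and 18 of them, the medians were 1.12 and 0.127 CPM per kb, and H4c9 stood at 26.6 CPM per kb. H2bc6, of the longer ends, was left out because its span is 37455 bases, and the shorter-end genes left out have no known span. On GENCODE exons a further 15 members with under 16 annotated bases after the stop codon had 401 counts and a median of 0.519 CPM per kb, and 5 with a longer end and no stem-loop had 228 counts and 0.138 CPM per kb. Sequence uniqueness moved with the same split. Of the 16 genes with longer ends 12 had at least 50% of their 30-base windows in no other gene, against 1 of the 23 with shorter ends. Length, uniqueness and the annotated end cannot be told apart among these genes.

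**Figure D3:**
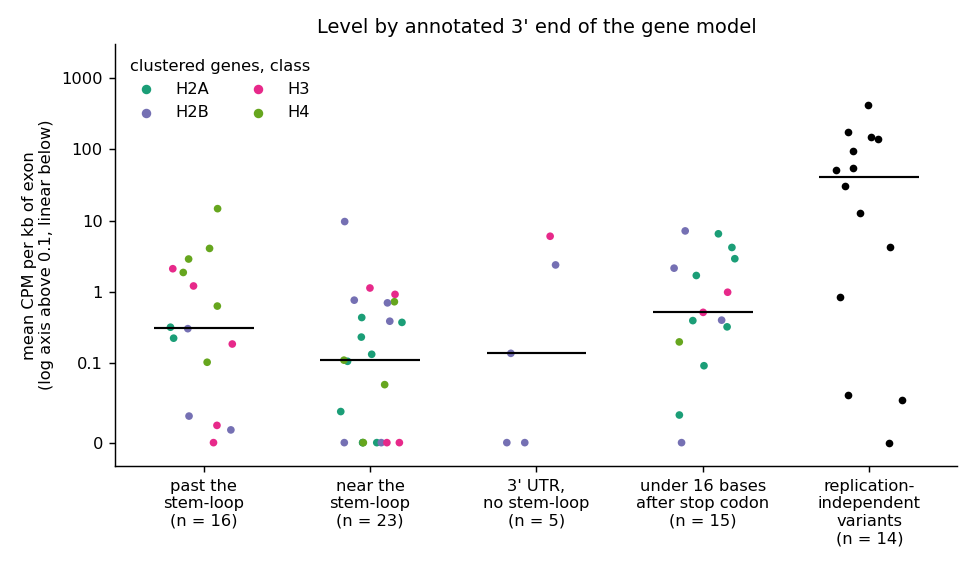
Mean CPM per kb of exon over 31 embryos (y axis, logarithmic above 0.1 and linear below) for the 59 clustered histone genes by the annotated 3′ end of the gene model, coloured by class, and for 14 replication-independent histone variants in black. Each point is a gene and each bar a median. The medians of the clustered groups lie between 0.111 and 0.519 CPM per kb, while H3f3b, the highest variant, lies at 418 CPM per kb.

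Close copies had few private windows overall. The median share of 30-base windows found in no other gene was 39.3% over the 59 members, 55.5% over the 15 highest and 36.2% over the other 44. Of the 12 members at 0, 6 had less than 25%, among them Hist1h2bq at 1.69%, and the highest had 51.8%. A count of 0 in these genes may therefore stand for reads placed on copies or dropped as not unique, which the deposited table does not show. Exons of other genes overlap 23 of the 59 members.

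For SER against control, no clustered histone gene passed the filter on low counts, which left 8571 genes and called 0.0% of them at an adjusted p of 0.1 by edgeR (5.73% had an unadjusted p under 0.05). Members were therefore read from the fit of all 17803 genes with a count, in which edgeR called 2.83% of genes, 0.792% higher and 2.04% lower in SER-generated embryos. None of the 47 members with a count was called, and limma voom, which called 0.455% of genes, called none either, while DESeq2 gave no adjusted p to any of them. An unadjusted p under 0.05 was found for 5 of the 47 (10.6%), against 10.7% of all genes, so the members stood at the background.

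Estimates were higher in SER-generated embryos for 20 members and lower for 27, with a median log2 fold change of -0.25 against 0.00 over all genes. Among the 30 members with at least 10 counts, 11 were higher and 19 lower with a median of -0.26. Of the 6988 genes with totals in the same range, 53.2% had lower estimates, with a median of -0.08. The SE of these 30 members was 0.70 to 1.07 on the log2 scale. With counts thinned to a common total, 43 members were fitted, of which 25 were higher and 18 lower. Among the alternatives that kept every embryo, the excess of lower estimates turned only there. With library size as covariate 21 were higher and 26 lower, with surrogate variables 23 and 24, and with DESeq2 11 and 36.

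**Figure D4:**
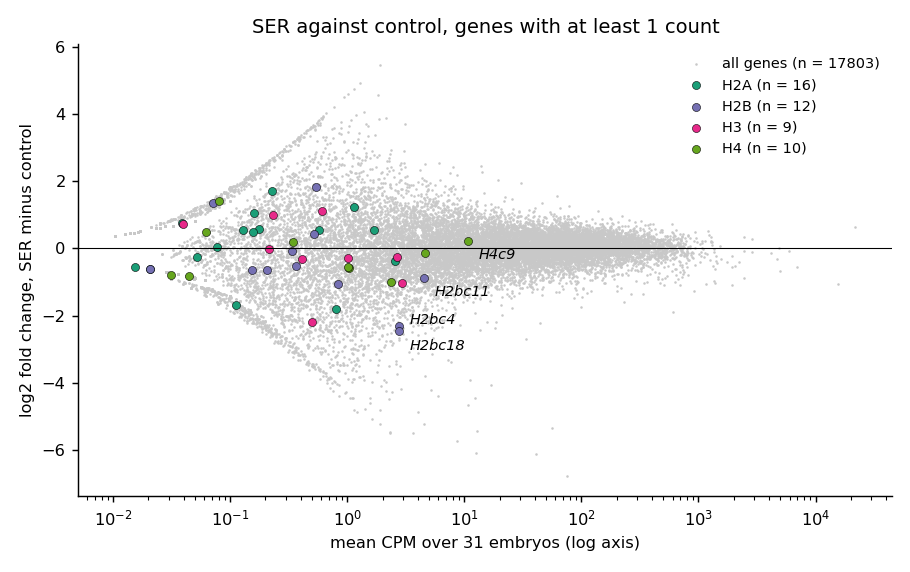
Log2 fold change of SER over control (y axis) against mean CPM over 31 embryos (x axis, logarithmic) from the fit of 17803 genes with at least 1 count, in grey, with the 47 clustered histone genes coloured by class. Members lie within the cloud of genes of like level, from -2.47 for H2bc18 to 1.82 for Hist1h2bp, and none passed the threshold.

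The 5 members with an unadjusted p under 0.05 were Hist1h2ao, H3c1, H2bc4, H2ac20 and H2bc18, with 3 to 99 counts in all. The log2 fold change of H2bc4 was -2.30 (SE 0.98, edgeR adjusted p = 0.313), and that of H2bc18 -2.47 (SE 1.07, adjusted p = 0.328). Without control-generated embryo 3 these were -1.45 and -0.57. H3c1 had 14 control and 3 SER counts, 13 of them in that embryo, a ratio of SER to control of 0.147 with an exact 95% counting interval of 0.027 to 0.526, and its estimate of -2.19 (SE 0.93, edgeR adjusted p = 0.307) became 0.67 without it. H2ac6 gave -1.82 (SE 0.92, edgeR adjusted p = 0.457), with 18 control and 5 SER counts.

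In the other direction, H2ac20 had 1 control and 11 SER counts in 4 embryos, a ratio of 7.53 (1.09 to 324) and an adjusted p of 0.320 by edgeR. It passed the threshold without control-generated embryo 3, at an adjusted p of 0.0963. That embryo held its only control count, so the control group was then at 0. Hist1h2bp had 3 and 17 counts, a ratio of 3.88 (1.12 to 20.7), with 11 of them in SER-generated embryo 4, and H2ac8 had 1 and 6 counts, a ratio of 4.11 (0.498 to 189). Hist1h2ao had 3 counts in control- and 0 in SER-generated embryos, while H4c11 and H2bc6 had 3 in SER- and 0 in control-generated embryos, all at or under the floor, so no fold is given. Among genes lower in SER-generated embryos, 2 also passed when 1 embryo was left out. These were H2bc14 without SER-generated embryo 6 (edgeR adjusted p = 0.0783) and H2bc15 without SER-generated embryo 10 (adjusted p = 0.0883). The left-out embryo held every SER count of the gene, 2 for H2bc14 and 5 for H2bc15. The SER group was then at 0, so no fold is given. H2bc14 and H2bc15 had 8 and 11 counts in all.

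Summing near-identical copies by class gave more counts per value. H2A genes summed to 7.48 ± 7.64 CPM in control- (SD, n = 16) and 8.46 ± 9.41 CPM in SER-generated embryos (SD, n = 15), a log2 fold change of 0.15 (SE 0.63). H2B genes summed to 17.9 ± 28.9 and 7.92 ± 6.38 CPM, a log2 fold change of -1.23 (SE 0.58), which was -0.45 without control-generated embryo 3. The H2B medians were 8.47 and 6.23 CPM. H3 genes summed to 9.79 ± 12.4 and 7.42 ± 6.28 CPM (-0.47, SE 0.61) and H4 genes to 20.3 ± 20.4 and 20.4 ± 19.5 CPM (-0.08, SE 0.59). In all 4 classes the groups overlapped, and SDs were near or above the means.

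The replication-independent variants, whose mRNA generally carries a poly(A) tail, were far more abundant in sum, though not each of them. Hils1 was at 0, and H2afy3, Macroh2a2, H1f10 and Macroh2a1 had means of 0.067, 0.116, 5.25 and 5.8 CPM, below the 10.7 CPM of H4c9. The 14 variant genes summed to 1885 to 5082 CPM in control- (median 2658) and 1560 to 3505 CPM in SER-generated embryos (median 2268). H3f3b, which encodes H3.3, was at a median of 1364 and 1050 CPM, and H2az1, which encodes H2A.Z, at 317 and 234 CPM. Cenpa, the centromeric H3, was at 256 and 248 CPM. After the filter edgeR called 0.0% of all 8571 genes, and 5.73% had an unadjusted p under 0.05. Of the 9 variants in that fit none was called or had an unadjusted p under 0.05. With 1 estimate higher and 8 lower, their median log2 fold change was -0.36 against 0.02 over all genes tested. H3f3b was at -0.37 (SE 0.21, adjusted p = 0.869).

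Genes that make and use histone mRNA were likewise not called in that fit. All 30 genes of histone transcription and pre-mRNA processing were tested, with 16 estimates higher and 14 lower. Of these 30 genes 5 had an unadjusted p under 0.05, against 5.73% of all genes in a fit that called 0.0%. Slbp, the stem-loop binding protein, was at medians of 357 and 371 CPM in the control and SER groups (log2 fold change -0.42, SE 0.32). Casp8ap2, a component of the bodies in which histone genes are transcribed, was at 658 and 565 CPM, and Ccne1, a cyclin that drives S phase entry, at 707 and 646 CPM. In the fit of all genes, where 2.04% of genes were called lower in SER-generated embryos, 2 of these 30 were. They were Snrpg and Snrpe, which encode proteins of the Sm ring shared by snRNPs, at -1.26 (SE 0.38, edgeR adjusted p = 0.0815) and -1.11 (SE 0.35, adjusted p = 0.0954) on the log2 scale. Medians in the control and SER groups were 146 and 119 CPM for Snrpg and 144 and 117 CPM for Snrpe. The highest control values were 1449 and 1074 CPM. After the filter their edgeR adjusted p was 0.403 and 0.461.

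None of the 20 histone chaperones or of the 32 tested genes of a list of 34 S phase genes was called by edgeR. Of the chaperones 1 and of the S phase genes 4 had an unadjusted p under 0.05. The same fit called 0.0% of all genes, and 5.73% of them had an unadjusted p under 0.05. Limma voom called 9 genes over the 4 lists, where it called 9.89% of all genes that passed the filter. Nasp, a chaperone of H3 and H4, was at 618 and 706 CPM at the median, Atrx, which deposits H3.3 with Daxx, at 872 and 592 CPM, and Npm1 at 436 and 582 CPM. Rrm2, a subunit of ribonucleotide reductase, was at 376 and 263 CPM, Mcm6 of the replicative helicase at 290 and 398 CPM, and Cdt1, a licensing factor, at 351 and 308 CPM. The S phase list had 18 estimates higher and 14 lower, with a median log2 fold change of 0.04.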

How the data were processed

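The authors separated 5′ reads with a molecular identifier from internal reads, aligned them with STAR (mm10 per the labels), removed duplicates, merged both and assigned reads to genes with FeatureCounts; the deposited values are these raw counts for 20544 genes and 31 embryos. Only unique alignments were kept for 5′ reads. Annotation, strand setting and versions are not given in the sources used here, and the embryos' batches are not named in the labels, so no batch term was fitted.

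From these counts, the SER group was compared with the control group in edgeR 4.0.16 under R 4.3.3 (quasi-likelihood test, TMM, filterByExpr with a minimum count of 10 and total of 15) with Benjamini-Hochberg adjustment over all genes tested and a threshold of 0.1, and again on all genes with a count. SE is the log2 fold change divided by the square root of F. CPM used each library's total. Positions, exon lengths and stem-loops came from GENCODE vM21 (GRCm38, the build of mm10). Members named are the 15 with the highest mean CPM and up to 5 higher and 5 lower with the smallest unadjusted p, and for each list of related genes those called and up to 3 with the highest mean CPM. H2bc14, H2bc15, Snrpg, Snrpe and members named for a count of 0 or a position were chosen after their values were seen. The members and lists were chosen with earlier results of these data known. The alternatives were DESeq2 1.42.0, its size factors in edgeR, limma 3.58.1 voom, 5 surrogate variables (sva 3.50.0), 3 estimated clusters, library size as covariate, thinning to 532945 counts, a stricter filter, a replicate block, an adjusted p of 0.05 and leaving out each embryo. The edgeR fit with the filter was tested on simulated counts of genes that pass it. The fit of all genes with a count, from which members were read, and the other methods were not tested in this way.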

Additional observations from a re-analysis of the deposited data

How the results depend on the processing

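For 23 named genes under 8 settings, 165 of 184 estimates kept their direction and side of the threshold, 18 turned in direction and 1 passed the threshold, H2bc18 with thinned counts (-3.15, adjusted p = 0.0975 by edgeR). DESeq2 gave none of these genes an adjusted p, so only their direction could be compared in that setting. The direction was kept in all 8 settings for 9 genes. The stricter filter kept no member. With surrogate variables H4c9 was -0.21, H3c6 0.89, H2bc1 0.029 and H3c1 0.42. With estimated clusters H4c9 was -0.21. With thinned counts H2bc11 was 0.16, H3c7 0.33 and H2ac1 0.051. With limma voom H3c13 was 0.16, H4c3 0.11, H4c14 0.10, H2bc6 -0.087 and H2ac8 -0.30. With DESeq2 H2bc6 and H4c11 were -0.028, and with library size H3c6 was 0.16. With the replicate block H2ac12 was -0.20 and H2bc1 0.43.

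Leaving out 1 embryo turned the direction in 13 of 713 estimates. Log2 fold changes then ranged from -0.080 to 0.89 for H4c9, -0.77 to 0.38 for H4c4, -0.72 to 0.31 for H3c7, -1.50 to 0.11 for H2ac1, -0.038 to 1.09 for H2ac12, -0.59 to 0.44 for H3c6, -1.38 to 0.015 for H2bc1, -0.11 to 1.88 for H2ac8 and -2.67 to 0.67 for H3c1. The class sums ranged from -0.23 to 0.51 for H2A, -1.46 to -0.45 for H2B, -0.67 to 0.05 for H3 and -0.28 to 0.27 for H4, and with estimated clusters, added after seeing the data, they were 0.06, -1.32, -0.66 and -0.34.

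The number of members called over all genes with a count was 1 with library size as covariate (H2bc15), 1 with thinned counts (H2bc18) and 0 to 1 without 1 embryo. Genes of the 4 lists called were 1 with surrogate variables, 9 with limma voom and 2 without the filter. The cause of these changes was not tested. Over all genes with a count, edgeR called 504, against 45 by DESeq2, 81 by limma voom, 305 with estimated clusters, 274 with library size, 354 with thinned counts, 577 with surrogate variables and 7 with the replicate block. After the filter 0 genes were called by edgeR, 49 by DESeq2, 848 by limma voom, 61 with surrogate variables and 24 with estimated clusters. Of 47 members 14 were higher and 33 lower with limma voom, and 11 and 36 with DESeq2.

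Same-numbered embryos share only a number: of 15 pairs 8 had a correlation above 0.1 (-0.37 to 0.49, median 0.11), and 6 embryos correlated best with their own number. The replicate block gave -0.24, -0.55, -0.09 and -0.60 for H2A, H2B, H3 and H4 and called 0 members. Low counts limit each member, since 51 had a median count of 0 in control- and 54 in SER-generated embryos.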

Other observations

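Of the histone genes whose older symbols follow the Hist pattern but whose symbols in the table do not, 10 were present, 6 linker histone genes on chromosome 13, 3 genes on chromosome 11 and 1 on chromosome 6. There were 2 linker histone genes with more counts than any core member. H1f1 had 762 counts in 30 embryos, with medians of 6.19 and 10.9 CPM in the control and SER groups, a lowest value of 0 and 3.13 and a highest of 87.8 and 79.1 CPM. H1f5 had 510 counts in 26 embryos, with medians of 3.56 and 14.3 CPM and highest values of 20.5 and 55.2 CPM. Both passed the filter, and neither was called by edgeR, at log2 fold changes of 0.53 (SE 0.59, adjusted p = 0.958) and 1.05 (SE 0.64, adjusted p = 0.912).

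H1f3 had 1 control and 12 SER counts. On chromosome 11, H2bu2 and H2aw had more counts in the control group. H2bu2 had 39 counts in 7 control-generated embryos and 4 counts in 2 SER-generated embryos, with 19 of them in control-generated embryo 1 (log2 fold change -3.00, SE 0.98, edgeR adjusted p = 0.118). H2aw had 45 counts in 6 control- and 4 in 2 SER-generated embryos (-2.88, SE 1.06, adjusted p = 0.192). Neither passed the threshold in the fit of all genes with a count, both group medians were 0 for each, and these genes were picked out after their values were seen.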
